A study of Mus musculus with 14 samples.

Results

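DNA replication and mitosis genes were followed in 3 mouse tumour cell lines after activation of RIG-I, the cytosolic sensor of viral RNA whose signalling induces type I interferon. The set held 41 genes given by name, of 34866 gene identifiers in the count tables. The first 20 were taken as the replication (S phase) list and the other 21 as the mitosis (G2/M) list, and all 41 were found, through their Ensembl identifiers without version, and passed the low-count filter in every line. Of the first 20, Mki67 is a general marker of proliferating cells with a peak of protein in mitosis, and of the other 21, Ccnd1 is a G1 cyclin. Both were kept where the list has them, and values with Mki67 moved to the mitosis list and Ccnd1 left out are given with the comparison of the lists.

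The lines were CT26, a colorectal carcinoma from BALB/c mice, E0771, a mammary carcinoma from C57BL/6 mice, and MC38, a colon adenocarcinoma from C57BL/6 mice. Wells of 100000 cells received either the RIG-I agonist or its control, each at 0.5 ug/ml, and were harvested after 24 h for stranded poly(A) RNA sequencing. CT26 had 3 libraries per agonist, and E0771 and MC38 had 2 each. CT26 and E0771 grew in RPMI and MC38 in DMEM, both with serum, so a difference in level between MC38 and the other lines cannot be told apart from the medium. The labels name no library run, but the column names of E0771 and MC38 share a prefix that those of CT26 lack. CT26 is also the only BALB/c line and had more counts per library. Its differences in level from the other lines cannot be told apart from strain or from how its libraries were made. The labels give no further treatment or allele, each line is 1 established culture, and nothing in the labels says whether libraries of a group came from separate cultures, so the spread behind each p-value is that of these libraries and may be technical.

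The CT26 libraries held 32826742 to 40564102 counts, the E0771 libraries 12413347 to 13399247 and the MC38 libraries 12347361 to 18964563, and the 41 genes held 0.598% to 1.01% of them. Ifnb1, the interferon gene used as a check of the agonist, went from a mean of 0.138 to 109.5 CPM (counts scaled by library size) in CT26, from 0.0389 to 13.7 CPM in E0771 and from 0.0768 to 3.52 CPM in MC38. The interferon-induced gene Ifit1 rose by 3.07, 5.58 and 2.01 on the log2 scale in the same order (edgeR's quasi-likelihood test, adjusted p = 4.67e-12, 0.00469 and 7.75e-20). The 6 leukocyte markers summed to 0 to 1.15 CPM in every library. Of the 6 epithelial markers, Epcam was at or near 0 in all lines, only Krt8 in E0771 and only Krt18 in CT26 were above 1 CPM, and the 6 summed to only 0.158 to 0.845 CPM in MC38. The 6 endothelial and fibroblast markers held counts in every line. Their summed level was 179.3 to 232.0 CPM with control agonist and 144.4 to 155.2 CPM with RIG-I agonist in CT26, 204.1 to 290.8 and 173.4 to 219.4 CPM in E0771, and 80.9 to 88.0 and 54.0 to 56.5 CPM in MC38. Pdgfra, Pdgfrb and Col1a1 fell in CT26 and in MC38, Kdr rose in CT26 from a mean of 0.00868 to 0.983 CPM, and none of the 6 was called in E0771. The part of these shifts in the results below was not tested.

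Replication is licensed in G1, when ORC, CDC6 and CDT1 load the MCM2-7 helicase on origins, and is fired in S phase when GINS and CDC45 join the helicase and polymerase alpha-primase starts new strands. The genes for these factors, for nucleotide supply and for cyclin E are targets of E2F transcription factors, whose activity peaks at the G1 to S transition. The mitotic genes are read later, in G2 and M, through CHR elements and CCAAT boxes bound by the DREAM and MuvB complexes with FOXM1 and by NF-Y, and their products condense, attach and separate the chromosomes. In an unsynchronised culture the RNA of each list therefore follows both the share of cells in each phase and the RNA made per cell. In these bulk samples fewer cells in a phase and less RNA per cell cannot be told apart.

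The start regions of 4 members are shown because these members moved most clearly or divide the lists. They are from RefSeq, on build GRCm38.p6, 5′ to 3′ on the gene's strand, with base 1 at the start of transcription and base -1 just before it. All 4 genes lie on the minus strand. Capitals mark the letters searched for, on either strand: TTTGAA or TTCGAA for the CHR, CCAAT for the CCAAT box (ATTGG on the other strand) and TTTNGCGC for E2F (its reverse complement on the other strand). Ccnb2 (chr9:70421535-70421654), whose product cyclin B2 activates CDK1 in G2 and M, had 3 CCAAT boxes upstream and a CHR beginning at base 5.
Ccnb2 start region: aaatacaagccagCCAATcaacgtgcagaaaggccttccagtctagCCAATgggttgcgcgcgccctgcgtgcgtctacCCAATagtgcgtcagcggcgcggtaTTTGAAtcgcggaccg
Cenpf (chr1:189688067-189688226), which codes for a kinetochore and nuclear matrix protein of G2 and M, had 2 CCAAT boxes upstream and a CHR beginning at base 3.
Cenpf start region: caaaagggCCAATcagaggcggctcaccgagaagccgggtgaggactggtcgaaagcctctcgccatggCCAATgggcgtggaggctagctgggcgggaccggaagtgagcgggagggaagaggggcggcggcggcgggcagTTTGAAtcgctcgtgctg
Mki67 (chr7:135716459-135716579), listed with the replication genes, had 3 CCAAT boxes and 2 CHR matches and no E2F match.
Mki67 start region: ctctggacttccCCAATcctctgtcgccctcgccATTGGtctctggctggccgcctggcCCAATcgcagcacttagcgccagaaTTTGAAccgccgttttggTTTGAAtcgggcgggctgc
Mcm6 (chr1:128359706-128359825), a subunit of the replicative helicase, had 3 E2F matches, of which the first 2 overlap each other on opposite strands, and 2 CCAAT boxes and no CHR.
Mcm6 start region: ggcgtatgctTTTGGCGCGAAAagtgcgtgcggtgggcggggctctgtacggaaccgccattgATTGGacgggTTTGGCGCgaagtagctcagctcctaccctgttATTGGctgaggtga

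A start region of 250 bases before and 50 bases after the start was at hand for 31 of the 41 genes, 16 of the replication list and 15 of the mitosis list. A CHR match stood in 12 of the 15 mitosis windows (80.0%), in 3 of the 16 replication windows (18.75%, Mki67 among them) and in 19.44% of all 27025 mouse windows of that length. All 12 of the mitosis windows with a CHR also held a CCAAT box, a pair found in 7.704% of all windows. E2F matches showed the opposite order, with 6 of 16 replication windows (37.5%), 1 of 15 mitosis windows (6.667%) and 1.38% of all windows. These are matches of letters, and say nothing of binding in these cells.

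**Figure D1:**
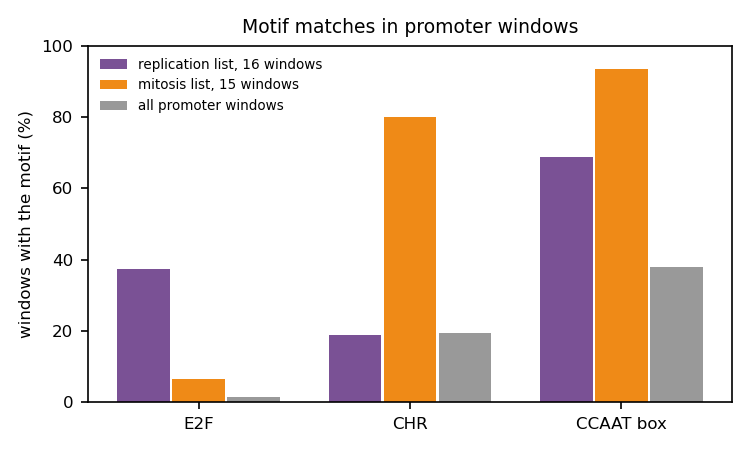
Share of start regions (y axis, percent of windows) holding each motif (x axis), for the replication list, the mitosis list and all 27025 windows. The CHR stood in 80.0% of mitosis windows against 18.75% of replication windows, and E2F in 6.667% against 37.5%.

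In CT26, many mitosis genes were lower with RIG-I agonist, while replication genes moved both ways. Of the 21 mitosis genes, 12 fell, 0 rose and 9 did not pass the test (edgeR's quasi-likelihood test, adjusted p under 0.05 over all genes tested), with a median log2 fold change of -0.19. Of the 20 replication genes, 4 rose and 2 fell, with a median of 0.051. The background is high in this line: 19.8% of the 13893 genes tested rose and 18.6% fell, with a median of 0.0006. The share of mitosis genes that fell was above that background, while the shares of replication genes that rose and fell were close to or below it. Every RIG-I library lay below every control library for 13 mitosis genes and above for 0, where 25% of all tested genes were lower and 26.4% higher in this sense, and for the replication list the counts were 5 lower and 6 higher.

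The B-type cyclins were among the members that fell most in CT26. Ccnb2 had 79.3, 77.4 and 77.00 CPM with control agonist and 59.7, 57.5 and 55.2 CPM with RIG-I agonist (log2 fold change -0.44, SE 0.058, adjusted p = 5.24e-05). Ccnb1, the main mitotic cyclin, had 238, 268 and 289 CPM with control agonist and 218, 226 and 219 CPM with RIG-I agonist (log2 fold change -0.26, SE 0.069, adjusted p = 0.00863). For both cyclins the groups did not overlap, yet their partner kinase Cdk1 was level, at 258, 295 and 303 CPM with control agonist and 286, 286 and 283 CPM with RIG-I agonist (log2 fold change -0.0022, SE 0.068, adjusted p = 0.983). Cdk1 libraries of the 2 groups were interleaved.

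Several kinetochore and checkpoint genes of the list fell as well. Cenpf had 293, 315 and 329.9 CPM with control agonist and 232, 235 and 235 CPM with RIG-I agonist (log2 fold change -0.42, SE 0.061, adjusted p = 1.33e-04). Cenpa, the histone H3 variant that marks the centromere, had 118, 121 and 113 CPM with control agonist and 98.7, 102 and 94.4 CPM with RIG-I agonist (log2 fold change -0.25, SE 0.054, adjusted p = 0.00239). Bub1, a checkpoint kinase at the kinetochore, had 109, 113 and 129 CPM with control agonist and 98.2, 96.5 and 96.3 CPM with RIG-I agonist (log2 fold change -0.27, SE 0.065, adjusted p = 0.00487). In all 3 genes the RIG-I libraries were below the control libraries without overlap. Bub1b, which codes for the checkpoint protein BUBR1, fell by less (-0.19, adjusted p = 0.0170), and Cenpe, a kinetochore motor, was at -0.0034 (adjusted p = 0.971).

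Spindle motors and organisers fell in part. Kif11, the motor that separates spindle poles, had 147, 160.4 and 175 CPM with control agonist and 130.3, 136 and 137 CPM with RIG-I agonist (log2 fold change -0.26, SE 0.061, adjusted p = 0.00445). Tpx2, which activates Aurora A and nucleates spindle microtubules, had 357, 369 and 395 CPM with control agonist and 311, 312 and 307 CPM with RIG-I agonist (log2 fold change -0.27, SE 0.063, adjusted p = 0.00400). Kif23, a motor of the central spindle, had 177, 173 and 177 CPM with control agonist and 149.6, 148 and 145 CPM with RIG-I agonist (log2 fold change -0.25, SE 0.046, adjusted p = 7.75e-04). Each of the 3 was lower in every RIG-I library, whereas Kif20a, another motor of the central spindle, was at -0.019 (adjusted p = 0.855). Top2a, the topoisomerase that untangles sister chromatids, had 708, 746 and 822 CPM with control agonist and 645, 660.1 and 640.4 CPM with RIG-I agonist (log2 fold change -0.23, SE 0.069, adjusted p = 0.0194).

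Several other mitotic kinases and regulators did not pass the test. Plk1 had 105, 101 and 92.9 CPM with control agonist and 96.2, 99.4 and 99.7 CPM with RIG-I agonist (log2 fold change -0.017, SE 0.058, adjusted p = 0.850). Foxm1, the transcription factor of many of these genes, had 286, 244 and 219.9 CPM with control agonist and 254, 260.3 and 264 CPM with RIG-I agonist (log2 fold change 0.052, SE 0.081, adjusted p = 0.648). Neither passed the test, nor did Aurka (0.075), Cdc20 (-0.048), Birc5 (-0.093) or Ccna2 (-0.10), with adjusted p from 0.145 to 0.509. Aurkb, the kinase of the chromosomal passenger complex, fell by a small amount (-0.18, adjusted p = 0.0298). The G1 cyclin gene Ccnd1 had 891, 858 and 779.7 CPM with control agonist and 748, 732 and 731 CPM with RIG-I agonist (log2 fold change -0.19, SE 0.067, adjusted p = 0.0350), so 11 of the 12 that fell are genes of G2 and M.

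In the replication list of CT26, Gins1, a subunit of the GINS complex of the active helicase, changed most, with 26.4, 29.5 and 29.04 CPM with control agonist and 39.7, 37.7 and 37.4 CPM with RIG-I agonist (log2 fold change 0.43, SE 0.067, adjusted p = 2.16e-04). Cdc6, a helicase loader, had 44.1, 53.9 and 52.5 CPM with control agonist and 60.1, 58.6 and 58.2 CPM with RIG-I agonist (log2 fold change 0.23, SE 0.074, adjusted p = 0.0245). Its partner Cdt1 had 99.6, 98.97 and 81.2 CPM with control agonist and 105, 111 and 105 CPM with RIG-I agonist (log2 fold change 0.20, SE 0.074, adjusted p = 0.0468). Gins1, Cdc6 and Cdt1 were each higher in every RIG-I library than in every control library. Mcm6 had 341, 339 and 334 CPM with control agonist and 409.7, 377 and 383 CPM with RIG-I agonist (log2 fold change 0.21, SE 0.061, adjusted p = 0.0167), the only one of the 6 MCM genes to pass. Mcm2, for example, had 338, 325 and 307 CPM with control agonist and 314, 308 and 309 CPM with RIG-I agonist (log2 fold change -0.060, SE 0.061, adjusted p = 0.473), and Mcm3, Mcm4, Mcm5 and Mcm7 lay between 0.026 and 0.11 with adjusted p of 0.173 or more.

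Of the replication list, Mki67 and Pola1 fell in CT26. Mki67 had 582, 594 and 587 CPM with control agonist and 513, 499.8 and 508 CPM with RIG-I agonist (log2 fold change -0.21, SE 0.059, adjusted p = 0.0123). Pola1, the catalytic subunit of polymerase alpha, had 130.1, 140.1 and 152 CPM with control agonist and 119.6, 126 and 121 CPM with RIG-I agonist (log2 fold change -0.20, SE 0.060, adjusted p = 0.0167). The other subunit gene of the same complex in the list, the primase Prim1, leaned the other way (0.17, adjusted p = 0.0535). The E2F and clamp genes did not pass. Pcna, the sliding clamp, had 557, 639 and 677 CPM with control agonist and 674, 682 and 657 CPM with RIG-I agonist (log2 fold change 0.10, SE 0.075, adjusted p = 0.296). E2f1 had 84.2, 80.7 and 77.3 CPM with control agonist and 76.4, 75.3 and 77.03 CPM with RIG-I agonist (log2 fold change -0.083, SE 0.057, adjusted p = 0.275). Ccne1, cyclin E1, had 64.6, 65.6 and 64.03 CPM with control agonist and 66.2, 63.02 and 63.5 CPM with RIG-I agonist (log2 fold change -0.011, SE 0.056, adjusted p = 0.895). The groups overlapped for Pcna and Ccne1. The nucleotide enzymes Rrm1, Rrm2 and Tyms lay at -0.17, -0.086 and -0.0049, and Mcm3, Gins2 and Ccne2 at 0.026, 0.076 and -0.16, none past the threshold.

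Leaving out 1 library at a time ended some of these calls in CT26. Among mitosis genes, Aurkb lost its call without control 2 or any RIG-I library (adjusted p = 0.0669 to 0.11), Bub1b without control 2, RIG-I 2 or RIG-I 3 (0.0606 to 0.117), Ccnd1 without control 2 or any RIG-I library (0.0928 to 0.117), and Top2a without control 2 or any RIG-I library (0.0501 to 0.0747). Among replication genes, Cdc6 lost it without any RIG-I library (0.0534 to 0.0943), Cdt1 without control 2, control 3 or any RIG-I library (0.0519 to 0.186), Mcm6 without control 2 or RIG-I 1 (0.0596 and 0.1), Mki67 without control 2 or RIG-I 2 (0.0512 and 0.0532) and Pola1 without RIG-I 1 or RIG-I 3 (0.0885 and 0.0733). The count of mitosis genes that fell was 14 without control 1 and 8 to 12 without any other library, and without control 1 also 1 mitosis gene, Foxm1, passed as higher (0.16). The count of replication genes that rose was 1 without RIG-I 1, 2 without control 2, RIG-I 2 or RIG-I 3, and 4 otherwise. Replication genes that fell numbered 4 without control 1 and 1 without control 2 or any RIG-I library. Bub1, Ccnb2, Cenpa, Cenpf, Gins1, Kif11 and Tpx2 passed under every alternative computed. In a fit that shares 1 spread over all lines, Ccnb1, Kif23 and Ccnd1 (adjusted p = 0.1000, 0.0840 and 0.0532) and Cdc6, Cdt1 and Mcm6 (0.112 to 0.259) lost their calls, and on plain library totals Aurkb, Ccnd1 and Cdt1 lost theirs (0.0785, 0.067 and 0.0532). Cdt1 was also lost with DESeq2 (0.0679) and with DESeq2-type size factors in edgeR (0.0501).

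In MC38, mitosis genes were again called in 1 direction and replication genes in both. Of the 21 mitosis genes, 9 fell and 0 rose, with a median log2 fold change of -0.090, and of the 20 replication genes 3 rose and 3 fell, with a median of 0.022. Over the 12387 genes tested in MC38, 16.9% fell and 18.9% rose, with a median of -0.0046. The share of mitosis genes that fell was again above the background and the replication shares were near it. Every RIG-I library was below every control library for 12 mitosis genes and above for 2, and the replication list had 4 lower and 11 higher, where 33.8% and 33.4% of all tested genes were lower and higher without overlap. The 2 libraries per agonist were close replicates, with a biological coefficient of variation of 0.0304 over all genes, against 0.102 in CT26 and 0.202 in E0771.

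The largest change of any member in MC38 was that of Mki67, with 675 and 715 CPM with control agonist and 488 and 514 CPM with RIG-I agonist (log2 fold change -0.47, SE 0.037, adjusted p = 1.76e-09). Ccnb2 had 83.97 and 87.2 CPM with control agonist and 65.5 and 67.7 CPM with RIG-I agonist (log2 fold change -0.36, SE 0.051, adjusted p = 1.00e-05). Cenpf had 96.1 and 98.7 CPM with control agonist and 75.8 and 79.5 CPM with RIG-I agonist (log2 fold change -0.32, SE 0.049, adjusted p = 2.06e-05). These 3 were lower in both RIG-I libraries. Their start regions hold the CHR and CCAAT letters shown above. So do those of Top2a, Cdk1, Plk1, Aurka and Cdc20, which did not pass the test in MC38. The window of Ccnb1, which fell, held CCAAT boxes but no CHR match. Cenpa had 75.2 and 72.8 CPM with control agonist and 60.96 and 60.7 CPM with RIG-I agonist (log2 fold change -0.29, SE 0.053, adjusted p = 2.09e-04). Bub1b had 165 and 167 CPM with control agonist and 136 and 145 CPM with RIG-I agonist (log2 fold change -0.24, SE 0.042, adjusted p = 1.23e-04). Ccnb1 had 274 and 277 CPM with control agonist and 242 and 242 CPM with RIG-I agonist (log2 fold change -0.19, SE 0.035, adjusted p = 2.15e-04). The 2 groups did not overlap for any of these. Tpx2 had 367 and 375 CPM with control agonist and 334 and 341 CPM with RIG-I agonist (log2 fold change -0.14, SE 0.034, adjusted p = 0.00349). Kif11, Bub1 and Kif20a also fell, by 0.14, 0.13 and 0.11 on the log2 scale (adjusted p = 0.0122, 0.0300 and 0.0240).

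The remaining mitosis genes of MC38 did not pass the test. Top2a had 865 and 854 CPM with control agonist and 855 and 862 CPM with RIG-I agonist (log2 fold change -0.0013, SE 0.032, adjusted p = 0.981). Cdk1 had 178 and 174 CPM with control agonist and 177 and 161 CPM with RIG-I agonist (log2 fold change -0.062, SE 0.044, adjusted p = 0.299). Plk1 had 139 and 143 CPM with control agonist and 145 and 136 CPM with RIG-I agonist (log2 fold change -0.0089, SE 0.043, adjusted p = 0.897). None of these passed, and the same held for Foxm1, with 126 and 126 CPM with control agonist and 129 and 130.1 CPM with RIG-I agonist (log2 fold change 0.044, SE 0.042, adjusted p = 0.447). Ccnd1 had 493 and 518 CPM with control agonist and 501 and 494 CPM with RIG-I agonist (log2 fold change -0.023, SE 0.034, adjusted p = 0.637). Aurka, Aurkb, Birc5, Ccna2, Cdc20, Cenpe and Kif23 lay between -0.098 and 0.056, with adjusted p of 0.0506 or more.

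In the replication list of MC38, the loader Cdt1 had 203 and 201 CPM with control agonist and 234 and 219.9 CPM with RIG-I agonist (log2 fold change 0.16, SE 0.039, adjusted p = 0.00216). Rrm2, the regulated subunit of ribonucleotide reductase, had 497 and 499 CPM with control agonist and 560.5 and 546 CPM with RIG-I agonist (log2 fold change 0.15, SE 0.033, adjusted p = 0.00106). Its large subunit Rrm1 went the other way, with 329.5 and 332 CPM with control agonist and 297 and 311 CPM with RIG-I agonist (log2 fold change -0.12, SE 0.035, adjusted p = 0.0107). Mcm6 rose, with 396 and 382 CPM with control agonist and 423 and 431 CPM with RIG-I agonist (log2 fold change 0.13, SE 0.034, adjusted p = 0.00418). Gins2, a GINS subunit, fell, with 44.8 and 43.7 CPM with control agonist and 37.03 and 35.6 CPM with RIG-I agonist (log2 fold change -0.29, SE 0.066, adjusted p = 0.00159). Its partner Gins1 was at 0.15 (adjusted p = 0.0928). Mcm2 had 353 and 364 CPM with control agonist and 372 and 377 CPM with RIG-I agonist (log2 fold change 0.064, SE 0.034, adjusted p = 0.157). Pcna had 471 and 436 CPM with control agonist and 451 and 439 CPM with RIG-I agonist (log2 fold change -0.031, SE 0.038, adjusted p = 0.559). E2f1 had 85.9 and 82.4 CPM with control agonist and 88.5 and 88.2 CPM with RIG-I agonist (log2 fold change 0.069, SE 0.048, adjusted p = 0.291). Neither Mcm2, Pcna nor E2f1 passed. Ccne1 had 12.6 and 14.97 CPM with control agonist and 15.5 and 15.6 CPM with RIG-I agonist (log2 fold change 0.18, SE 0.11, adjusted p = 0.219). Mcm3, Mcm4, Mcm5, Mcm7, Tyms, Cdc6, Pola1, Prim1 and Ccne2 lay between -0.072 and 0.12.

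Leaving out 1 library in MC38 ended the calls of Bub1 without control 1 or either RIG-I library (adjusted p = 0.0505 to 0.364), Kif11 without control 2 or RIG-I 1 (0.102 and 0.0769), Kif20a without any 1 of the 4 libraries (0.0668 to 0.126), Mcm6 without control 2 (0.0756) and Rrm1 without control 2 or RIG-I 1 (0.0689 and 0.126). DESeq2 called 5 mitosis genes lower, without Bub1, Kif11, Kif20a and Tpx2, and 1 replication gene lower, Mki67. Over all genes it called 804 lower and 1153 higher, where the main fit called 2099 and 2338. A fit that shares 1 spread over all lines, which is wider than that of MC38, kept only Ccnb2 of the mitosis list and only Mki67 of the replication list. The share of all genes called in that fit was not counted.

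**Figure D2:**
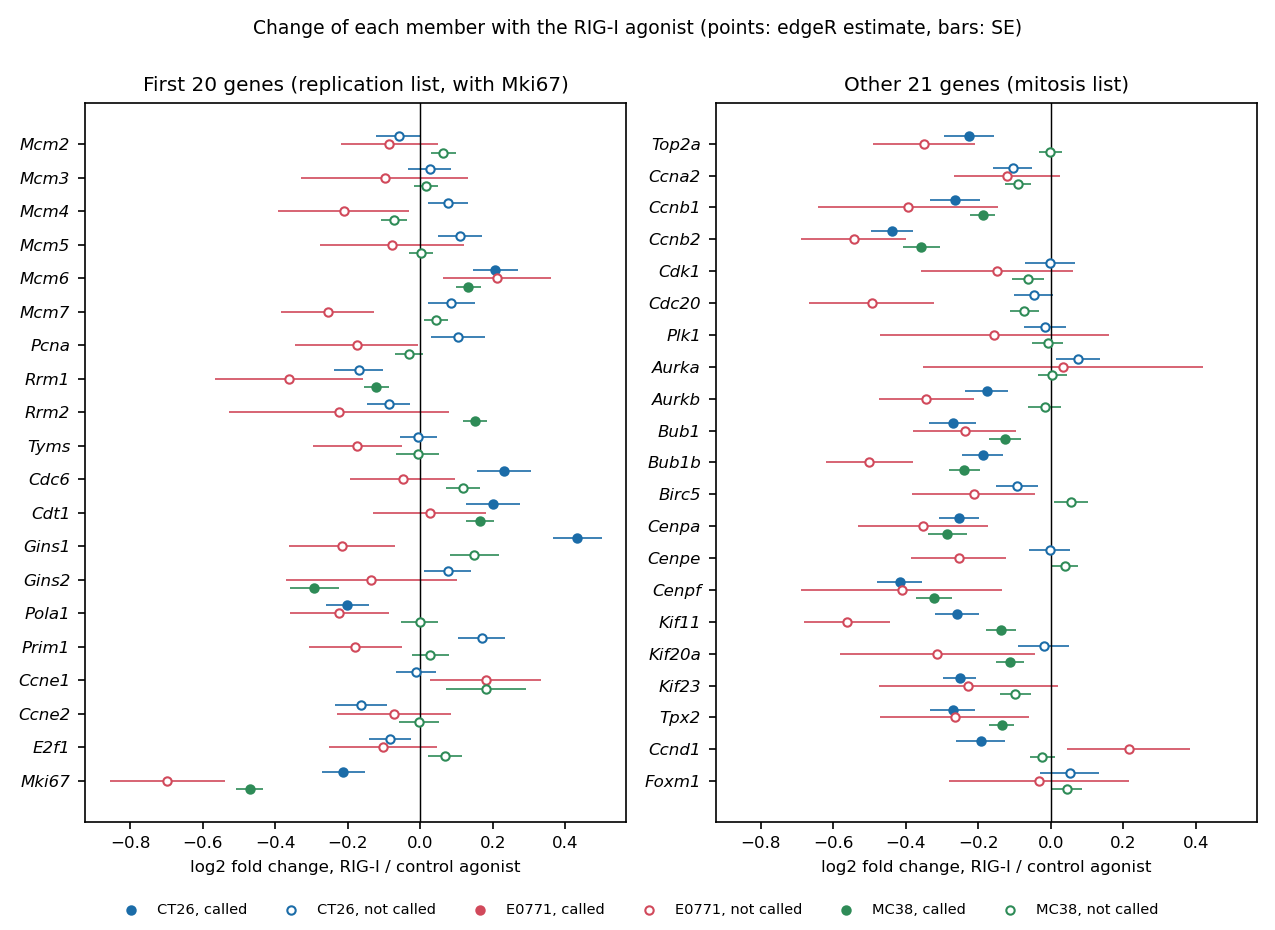
Log2 fold change with RIG-I agonist (x axis) of each of the 41 members (rows), for the replication list on the left and the mitosis list on the right. Points are edgeR estimates, bars are standard errors, and filled points passed the test. In CT26 12 and in MC38 9 mitosis genes are filled, all to the left of 0, and no E0771 point is filled.

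In E0771 no member passed the test in either direction in the main edgeR fit, and only 180 (1.53%) of 11728 genes rose and 3 (0.0256%) fell at all. At an unadjusted p under 0.05, 5 mitosis genes and 1 replication gene were lower and none higher. Of the 11728 genes tested, 1242 passed at that level in either direction, a share below that of the mitosis list and above that of the replication list. DESeq2 called 2 members lower, Kif11 and Mki67 (adjusted p = 0.0439 and 0.0269), where it called 45 genes lower and 370 higher in all. The fit that shares 1 spread over all lines, which is narrower than that of E0771, called 7 mitosis and 2 replication genes lower. An edgeR fit with the replicate number as a block called 17 members lower. The column names give control and RIG-I libraries the same numbers, but the labels do not say that these were paired. The share of all genes called in these 2 fits was not counted. The estimates of the main fit leaned down: 19 of 21 mitosis genes and 17 of 20 replication genes were below 0, with medians of -0.27 and -0.15 on the log2 scale against -0.0075 over all genes. The RIG-I libraries were both below both control libraries for 9 mitosis and 7 replication genes, and both above for 0 and 1, where 20% of all genes tested were lower and 20.4% higher in this sense.

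The member with the largest estimate in E0771 was Mki67, with 167 and 145 CPM with control agonist and 105 and 86.99 CPM with RIG-I agonist (log2 fold change -0.70, SE 0.16, adjusted p = 0.191). Kif11 had 143 and 143 CPM with control agonist and 97.9 and 95.9 CPM with RIG-I agonist (log2 fold change -0.56, SE 0.12, adjusted p = 0.152). Ccnb2 had 93.2 and 97.01 CPM with control agonist and 59.1 and 71.3 CPM with RIG-I agonist (log2 fold change -0.54, SE 0.15, adjusted p = 0.272). For each of these 3, both RIG-I libraries lay below both control libraries. Top2a had 682 and 729 CPM with control agonist and 550.2 and 555 CPM with RIG-I agonist (log2 fold change -0.35, SE 0.14, adjusted p = 0.480). Ccnb1 had 290.0 and 225 CPM with control agonist and 236 and 156 CPM with RIG-I agonist (log2 fold change -0.39, SE 0.25, adjusted p = 0.689). Cdk1 had 233 and 186 CPM with control agonist and 219 and 160.3 CPM with RIG-I agonist (log2 fold change -0.15, SE 0.21, adjusted p = 0.880). Groups overlapped for Ccnb1 and Cdk1 and not for Top2a. Plk1 had 154 and 115 CPM with control agonist and 155 and 86.3 CPM with RIG-I agonist (log2 fold change -0.16, SE 0.32, adjusted p = 0.918). Foxm1 had 188 and 149 CPM with control agonist and 199 and 130.1 CPM with RIG-I agonist (log2 fold change -0.032, SE 0.25, adjusted p = 0.983). The groups overlapped for Plk1 and Foxm1 too, and no adjusted p of these 8 genes was under 0.15.

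Replication genes of E0771 had similar spreads. Mcm2 had 255 and 250.2 CPM with control agonist and 255 and 221 CPM with RIG-I agonist (log2 fold change -0.085, SE 0.13, adjusted p = 0.892). Pcna had 214 and 184 CPM with control agonist and 196 and 157 CPM with RIG-I agonist (log2 fold change -0.18, SE 0.17, adjusted p = 0.821), and a pseudogene copy, Pcna-ps2, held another 30.4 to 37.2 CPM in E0771 against at most 0.648 CPM in the other lines, so some Pcna reads of E0771 may be counted there. E2f1 had 39.8 and 37.5 CPM with control agonist and 38.97 and 33.1 CPM with RIG-I agonist (log2 fold change -0.10, SE 0.15, adjusted p = 0.884). Ccne1 had 67.8 and 57.7 CPM with control agonist and 76.5 and 65.7 CPM with RIG-I agonist (log2 fold change 0.18, SE 0.15, adjusted p = 0.796). In the mitosis list the G1 cyclin gene Ccnd1 was one of the 2 above 0, with 427 and 354 CPM with control agonist and 489 and 417 CPM with RIG-I agonist (log2 fold change 0.21, SE 0.17, adjusted p = 0.773). None of these 5 passed the test, and the groups overlapped for each.

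**Figure D3:**
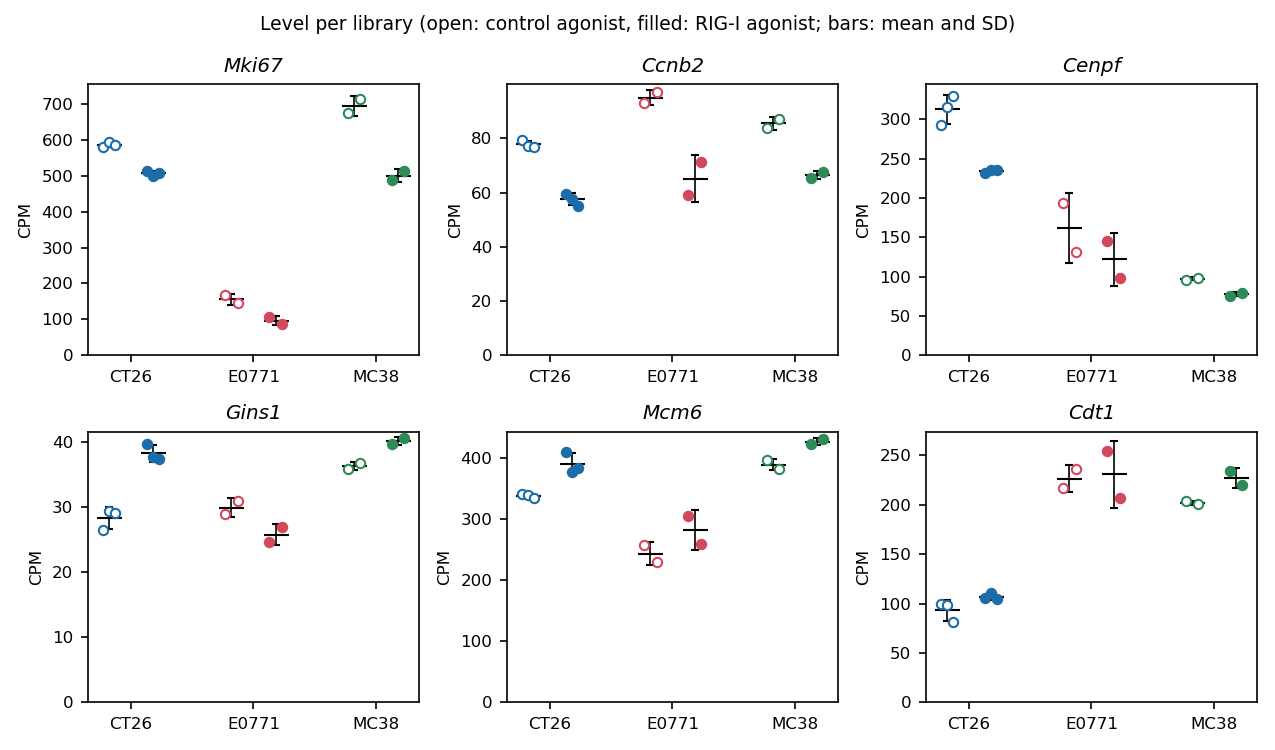
Level per library in CPM (y axis) of 6 members in the 3 lines (x axis), open for control agonist and filled for RIG-I agonist, with mean and SD as bars. Mki67 and Ccnb2 are lower in every RIG-I library of all lines, Cenpf overlaps only in E0771, and Gins1 is above its controls in CT26 and MC38 and below them in E0771.

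The lists were set side by side within each library by the mean log2(CPM + 1) of the replication list minus that of the mitosis list. In CT26 this difference was -0.402, -0.397 and -0.418 with control agonist and -0.203, -0.214 and -0.216 with RIG-I agonist, so all RIG-I libraries were higher, by a mean of 0.195. In MC38 it was -0.116 and -0.127 with control agonist and -0.0107 and -0.0174 with RIG-I agonist, again without overlap, by a mean of 0.107. In E0771 it was -0.625 and -0.476 with control agonist and -0.490 and -0.353 with RIG-I agonist. These 2 groups overlapped, and the mean change of 0.129 was 0.0543 without control 1, 0.0602 without RIG-I 2, 0.203 without control 2 and 0.198 without RIG-I 1. By list, the mean of the mitosis genes changed by -0.157 in CT26 and -0.102 in MC38, while that of the replication genes changed by 0.0372 and 0.00560. In E0771 the mean of the mitosis genes changed by -0.276 and that of the replication genes by -0.147. With Mki67 moved and Ccnd1 left out, the change became 0.209 in CT26, 0.201 in E0771 and 0.154 in MC38. The E0771 groups then did not overlap, at -0.585 and -0.433 with control agonist and -0.380 and -0.237 with RIG-I agonist. The same borders gave 1 replication and 12 mitosis genes lower in CT26, 2 and 10 in MC38, and medians of -0.13 and -0.31 in E0771. The scale is a mean over genes, so no test over the members was made.

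**Figure D4:**
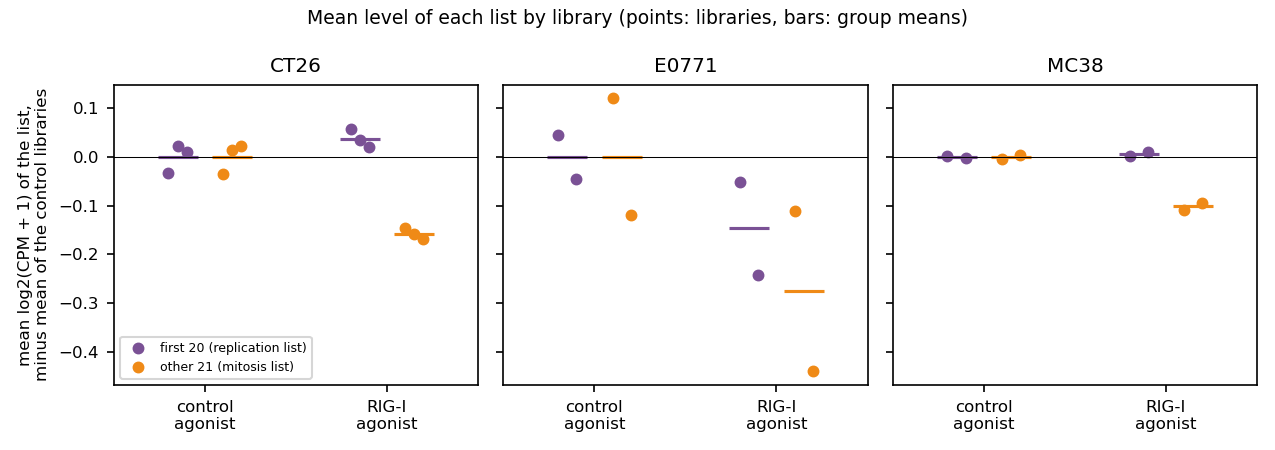
Mean log2(CPM + 1) of each list minus the mean of the control libraries of that line (y axis), by agonist (x axis), with 1 point per library and bars at group means. In CT26 and MC38 the mitosis means of all RIG-I libraries lie below 0 and apart from the controls while the replication means stay near 0, and in E0771 both lists scatter widely.

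CT26 and MC38 have no library in common, so their calls can be compared. Of the 14 members that fell in CT26 and the 12 that fell in MC38, 9 were the same: Mki67, Ccnb1, Ccnb2, Bub1, Bub1b, Cenpa, Cenpf, Kif11 and Tpx2. This was 64.3% of the CT26 members and 75% of the MC38 members. Over the 11539 genes tested in both lines, 915 fell in both, 38.2% of those that fell in CT26 and 47% of those in MC38. Of the 4 members that rose in CT26 and the 3 in MC38, Mcm6 and Cdt1 rose in both (50% and 66.7%), against 43% and 42.5% over all genes, with the CT26 call of Cdt1 lost under most alternatives as given above.

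Differences in the RIG-I effect between lines were tested as interactions in 1 fit of all 14 libraries. Its shared spread, a biological coefficient of variation of 0.122 over all genes, is narrower than the 0.202 of E0771 alone. The standard error of a difference that includes E0771 can therefore be below that of E0771 alone. For Gins1 it was 0.11 against 0.15. Of the 41 members, 1 differed between CT26 and E0771, where 3.88% of all 14657 genes did. It was Gins1, whose effect was 0.39 in CT26 and -0.22 in E0771, a difference of 0.61 (SE 0.11, adjusted p = 0.00951 by edgeR's quasi-likelihood test). In E0771 it had 28.9 and 30.9 CPM with control agonist and 24.6 and 26.9 CPM with RIG-I agonist (log2 fold change -0.22, SE 0.15, adjusted p = 0.720). No member passed between CT26 and MC38 (3.8% of all genes) or between E0771 and MC38 (2.11%) in this edgeR fit, and DESeq2 called 5, 0 and 3 members for the 3 pairs. The share of all genes that DESeq2 called was not counted, so its counts of members cannot be set beside a background. The nearest were Mki67 between CT26 and E0771 (difference 0.45, adjusted p = 0.0654) and Kif11 between E0771 and MC38 (difference -0.44, adjusted p = 0.0751). The count between CT26 and E0771 was 2 without CT26 control 3, E0771 control 1, control 2 or RIG-I 2, and 4 without E0771 RIG-I 1. The count between E0771 and MC38 was 1 without CT26 control 1, CT26 control 3 or E0771 RIG-I 1.

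The lines also differed in how much of each member they held with control agonist. On library sizes scaled over all 14 libraries, 26 members differed between CT26 and E0771 (24 higher in CT26), 24 between CT26 and MC38 (17 higher in CT26) and 27 between E0771 and MC38 (21 higher in MC38), by the same edgeR test. Of all genes tested, 70.3%, 73.6% and 64.1% differed between these pairs, so the shares of members, 26, 24 and 27 of 41, were near or below the background. E0771 had the lowest mean of the 3 lines for 17 of the 20 replication genes and for 10 of the 21 mitosis genes, and the share over all genes was not counted. The median log2 difference of the replication list was 0.40 for CT26 minus E0771 and -0.60 for E0771 minus MC38.

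Mki67 stood lowest in E0771, at 152 ± 14.7 CPM (mean ± SD, n = 2), against 618 ± 9.95 CPM in CT26 (n = 3) and 681 ± 26.6 CPM in MC38 (n = 2). Its level was 4.07-fold higher in CT26 than in E0771 and 4.49-fold higher in MC38 than in E0771 (adjusted p = 4.22e-10 and 7.87e-10), and CT26 and MC38 were not called different. E2f1 was likewise lowest in E0771, at 84.9 ± 3.69, 37.6 ± 1.40 and 82.4 ± 2.55 CPM in CT26, E0771 and MC38. Pcna ran from 656 ± 65.2 CPM in CT26 through 445 ± 24.8 in MC38 to 193 ± 20.1 in E0771, where the copy named above may hold further reads. Ccne1 was the member with the widest gap, at 13.5 ± 1.62 CPM in MC38 against 68.1 ± 1.26 in CT26 and 60.99 ± 6.66 in E0771, 5.05-fold and 4.53-fold higher than in MC38 (adjusted p = 2.73e-10 and 1.80e-09). CT26 and E0771 were not called different for Ccne1. Its relative Ccne2 was highest in MC38, at 58.8 ± 1.73 CPM, so the cyclin E genes did not share 1 order.

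Other members put CT26 apart. Cdt1 was lowest in CT26, at 98.04 ± 11.3 CPM against 220.2 ± 14.3 in E0771 and 198 ± 2.14 in MC38 (adjusted p = 2.69e-07 and 9.63e-07). Tyms, the thymidylate synthase gene, was highest there, at 116 ± 4.68 CPM against 46.8 ± 0.562 and 52.7 ± 0.781 CPM. Kif20a showed the same order, at 438 ± 38.4, 150.1 ± 31.3 and 184 ± 1.34 CPM, though E0771 and MC38 were not called different, as did Ccnd1, at 886 ± 61.4, 379 ± 48.7 and 496 ± 16.8 CPM. Cenpf decreased from line to line, from 329 ± 20.1 CPM in CT26 to 157 ± 42.1 in E0771 and 95.4 ± 1.72 in MC38, and each pair was called. Mitosis genes with little spread over the lines included Ccnb1, at 279 ± 27.1, 250.3 ± 43.4 and 269.8 ± 1.91 CPM, and Ccnb2, at 81.9 ± 1.23, 92.5 ± 3.06 and 83.9 ± 2.14 CPM, where no pair was called.

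**Figure D5:**
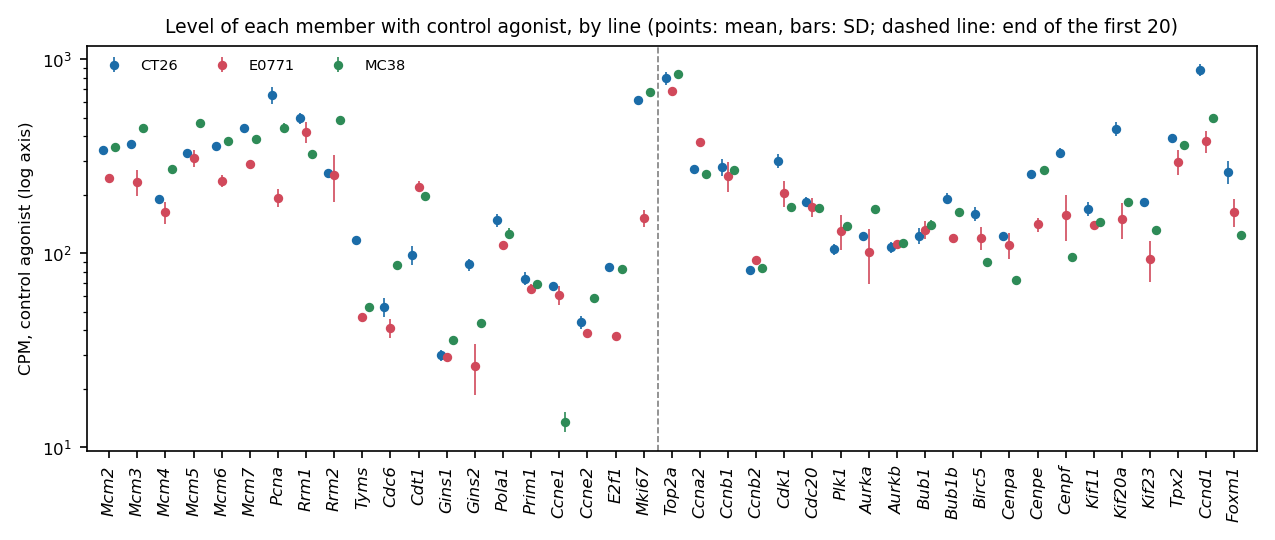
Level of each of the 41 members with control agonist in CPM (y axis, log scale) in the 3 lines, as mean and SD over libraries. Ccne1 at 13.5 CPM in MC38 and Mki67 at 151.6 CPM in E0771 stand far below the same genes in the other lines.

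Wider lists of the same pathways were counted in the same fits, and their counts stand beside a background of 19.8% of all tested genes higher and 18.6% lower in CT26 and 18.9% and 16.9% in MC38. Of 18 other kinesin and cytokinesis genes, 8 fell and 0 rose in CT26 and 10 fell and 0 rose in MC38, with medians of -0.16 and -0.14, and in E0771 all 18 estimates were below 0 but none was called. Prc1, the central spindle bundler, fell by 0.40 in CT26 and by 0.26 in MC38 (adjusted p = 1.22e-04 and 4.31e-05). Anln, the anillin gene of the cleavage furrow, fell by 0.36 in CT26 (adjusted p = 7.32e-04). Of 20 other kinetochore and checkpoint genes, 8 fell and 1 rose in CT26 and 5 fell and 1 rose in MC38. Of 15 cohesin, condensin and separase genes, 6 fell and 2 rose in CT26 and 5 fell and 1 rose in MC38. The securin gene Pttg1 was among those that rose in both lines, by 0.40 and 0.73 (adjusted p = 8.24e-04 and 2.63e-07), while condensin's Ncapd2 fell by 0.31 in MC38 (adjusted p = 6.91e-07). Of 16 genes of the anaphase-promoting complex and mitotic proteolysis, 4 fell and 2 rose in CT26 and 1 fell and 2 rose in MC38. The share that fell was well above this background in both lines for the kinesin and cohesin lists and in CT26 for the kinetochore list. The kinetochore list in MC38 and the proteolysis list in CT26 were only slightly above it, and the proteolysis list in MC38 was below it.

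The wider replication lists were mixed. Against the same background, the share of polymerase and fork genes was lower in each direction in both lines, that of licensing genes was clearly higher only among genes that rose in MC38, and that of replication stress and repair genes was near it except for a slightly larger share that rose in CT26. Of 16 origin licensing and helicase genes, 2 rose and 0 fell in CT26 and 5 rose and 3 fell in MC38. Mcm10, which helps the helicase to fire, rose by 0.54 in CT26 (adjusted p = 2.31e-05), and Orc2, an origin recognition subunit, by 0.31 in MC38 (adjusted p = 1.85e-05). Of 22 polymerase, clamp loader and fork genes, 3 rose and 1 fell in CT26 and 1 rose and 3 fell in MC38. Fen1, the flap nuclease of the lagging strand, rose in both, by 0.23 and 0.20 (adjusted p = 0.00937 and 0.00161, lost without CT26 RIG-I 2 at 0.0583 and without MC38 RIG-I 2 at 0.0623). Of 18 replication stress and repair genes, 5 rose and 3 fell in CT26 and 3 rose and 3 fell in MC38. Atm rose in both, by 0.46 and 0.26 (adjusted p = 1.65e-04 and 1.52e-04), and Atr, the kinase of stalled forks, fell by 0.53 in CT26 (adjusted p = 5.44e-05).

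Of 10 genes of deoxynucleotide supply, 3 rose and 4 fell in CT26, 1 rose in E0771, and 3 rose and 2 fell in MC38. Samhd1, which degrades deoxynucleotides and is known as an interferon-induced gene, rose in all lines. It went from 139 ± 4.59 to 323 ± 7.87 CPM (mean ± SD, n = 3) in CT26, from 90.8 ± 6.57 to 253 ± 33.4 CPM (n = 2) in E0771 and from 224 ± 0.195 to 378 ± 0.977 CPM (n = 2) in MC38, by 1.21, 1.48 and 0.76 on the log2 scale (edgeR, adjusted p = 5.65e-10, 0.0192 and 1.19e-13). Its effect was 0.71 larger in E0771 than in MC38 (adjusted p = 0.0102), and the other pairs of lines were not called different (0.201 and 0.0734). This test was added after its values were seen, and the call was lost without any 1 of the 4 MC38 libraries (0.0529 to 0.0624). Tk1, the S phase thymidine kinase, fell by 0.26 in MC38 (adjusted p = 3.97e-05).

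Among regulators of the cycle, the CDK inhibitor Cdkn1a stood out in E0771. Of 8 CDK inhibitor genes, 5, 6 and 7 passed the low-count filter in CT26, E0771 and MC38, of which 3 fell in CT26, 1 rose in E0771 and 3 fell in MC38. Cdkn1a, the p21 gene, went from 55.2 ± 3.48 to 149.9 ± 7.57 CPM (n = 2) in E0771, by 1.44 on the log2 scale (edgeR, adjusted p = 0.0119). It was at 0.14 in CT26 (adjusted p = 0.0520, 0.0372 with DESeq2, 0.0296 on plain library totals and 0.0107 without control 1) and at 0.11 in MC38 (adjusted p = 0.239). By the interaction test, the difference was -1.34 for CT26 minus E0771 and 1.31 for E0771 minus MC38 (edgeR, adjusted p = 1.02e-05 and 2.72e-05), a test added after its values were seen. Of 16 other cyclin and CDK genes, of which 15 passed the filter in each line, 2 rose and 7 fell in CT26 and 3 rose and 6 fell in MC38. The D-type cyclin gene Ccnd3 rose by 0.50 in CT26 and 0.30 in MC38 (adjusted p = 9.45e-06 and 3.81e-06), and Ccnd2 by 0.42 in MC38 (adjusted p = 4.33e-09). Of 19 E2F, RB and DREAM genes, 2 rose and 4 fell in CT26 and 2 rose and 2 fell in MC38, and the retinoblastoma gene Rb1 fell by 0.65 in CT26 (adjusted p = 7.77e-05). Apart from Samhd1 and Cdkn1a, no gene of these 11 lists was called in E0771.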

How the data were processed

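Poly(A) RNA of 14 libraries was measured. The authors deposited estimated counts per gene for 34866 Ensembl identifiers in 1 table per line, made with tools among which the submitters' processing notes list Salmon and DESeq2, on build GRCm38, with neither role nor version stated. Counts were rounded to whole numbers. Columns were tied to libraries by the names in the labels. Symbols and positions came from GENCODE M21 on GRCm38.

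The agonists were compared line by line with the quasi-likelihood test of edgeR 4.0.16 in R 4.3.3, using TMM scaling, robust dispersions and filterByExpr (minimum count 10). P-values were adjusted by Benjamini-Hochberg across every tested gene and called under 0.05, and CPM use TMM-scaled library sizes. Effects and control levels were compared between lines in 1 fit of all 14 libraries. Alternatives were other scalings, no filter, DESeq2 1.42.0, a shared spread, a replicate block, each library left out and other list borders. The fits were also run on counts simulated as independent libraries with the spread the fits had estimated. That run is no check of the spread or of the calls in these data.

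The members, the 11 pathway lists, the 3 marker lists and the tests were chosen with earlier results of these data known. All members were accounted for. Values per library are given for members called in a line (of each list the 8 with the lowest adjusted p in CT26 and 6 in MC38), for 11 members fixed in every line and for called differences between lines. Of the pathway lists, at most 3 called genes per line are named.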

Additional observations from a re-analysis of the deposited data

Results flagged for a closer look

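The effect of RIG-I agonist on Gins1 differed between CT26 and E0771. The test used a spread shared over all lines, which is narrower than that of E0771. The log2 fold change was 0.61 higher in CT26 than in E0771 (SE 0.11, edgeR's quasi-likelihood test of the interaction, adjusted p = 0.00951), and Gins1 was higher in 3 of 3 RIG-I libraries of CT26 than in any control library and lower in 2 of 2 of E0771. Without overlap, 26.4% of all genes tested were higher in CT26 and 20% were lower in E0771. Gins1 was the only one of 41 members called different between CT26 and E0771, where 3.88% of all 14657 genes were called. Over 19 alternatives, which included leaving out each library, the difference lay between 0.55 and 0.69, with adjusted p from 1.38e-04 to 0.0392.

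Beside the members, the effect on Cdkn1a differed by -1.34 for CT26 minus E0771 and by 1.31 for E0771 minus MC38 (edgeR's interaction test, adjusted p = 1.02e-05 and 2.72e-05), and both passed under all 19 alternatives. The effect on Samhd1 differed by 0.71 for E0771 minus MC38 (adjusted p = 0.0102), and passed under 15 of 19 alternatives, with adjusted p of up to 0.0624 when 1 MC38 library was left out. These tests used the same shared spread. Groups of 2 or 3 libraries were too small for a check of single libraries that stand apart.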

How the results depend on the processing

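No called value changed direction under any alternative. With a fit that shares 1 spread over all lines and scales all libraries together, replication genes called higher went from 4 to 1 in CT26 and from 3 to 0 in MC38. Those called lower went from 3 to 1 in MC38 and from 0 to 2 in E0771, and mitosis genes called lower from 9 to 1 in MC38 and from 0 to 7 in E0771. The share of all genes called in that fit was not counted. DESeq2 called 5 mitosis and 1 replication gene lower in MC38, 1 and 1 in E0771, and 5 and 3 differences of effect between CT26 and E0771 and between E0771 and MC38. Over all genes, DESeq2 called 804 lower in MC38 and 45 in E0771, against 2099 and 3 in the main fit. For the differences of effect the share of all genes was not counted. Among named genes of the wider lists, the shared-spread fit ended the MC38 calls of Ccnd3, Ncapd2, Tk1, Prc1, Atm and Fen1 (adjusted p = 0.0771 to 0.558). In CT26 it ended those of Atm and Fen1 (0.0651 and 0.331). Without a low-count filter 4 replication genes were lower in CT26. Plain library totals moved the CT26 medians to -0.16 (mitosis) and 0.076 (replication). With Mki67 moved and Ccnd1 left out, the replication median was 0.076 in CT26 and 0.028 in MC38, the MC38 mitosis median -0.098, and the change of replication minus mitosis 0.209 in CT26 and 0.154 in MC38.

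With the replicate number as a block, 13 mitosis and 4 replication genes were called lower in E0771, and 5, 1 and 4 effects differed between CT26 and E0771, CT26 and MC38, and E0771 and MC38. The share of all genes called with the block was not counted. The labels do not state a pairing, though the column names give control and RIG-I libraries the same numbers. The deviations of same-numbered libraries correlated at 0.0842 to 0.262 in CT26, 0.639 in E0771 and -0.0179 in MC38. With 2 pairs in E0771 and in MC38, the numbers were not taken as pairs. The block ended 1 member's call, that of Ccnd1 in CT26 (adjusted p = 0.0525), and added Ccna2, Cdc6 and Kif23 in MC38 (0.0301 to 0.045).

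Leaving out 1 library at a time, the CT26 median ranged from -0.21 to -0.16 for mitosis and from 0.024 to 0.063 for replication genes, with 0 to 1 mitosis genes higher, 1 to 4 replication genes higher and 1 to 4 lower. The MC38 medians ranged from -0.11 to -0.073 and from 0.019 to 0.045, and the E0771 mitosis median from -0.49 to -0.11. Members whose effect differed numbered 1 to 4 between CT26 and E0771 and 0 to 1 between E0771 and MC38. Over all genes, DESeq2 moved the share of called genes that rose from 98.4% to 89.2% in E0771 and from 52.7% to 58.9% in MC38. The biological coefficient of variation was 0.202 in E0771 and 0.0304 in MC38, with 2 libraries per agonist in both.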
